A study of Sus scrofa with 10 samples.

Results

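Cells that carried transcripts of PAX6, of the ZIC genes and of RELN at the same time were examined in the developing pig brain, where cerebellar granule neurons are the best known neurons with this combination. A cell was taken when it held at least 1 UMI (unique molecular identifier, which stands for 1 captured transcript) of PAX6, at least 2 UMIs of ZIC1, ZIC2 and ZIC4 together, at least 3 UMIs of RELN and at most 1 UMI of AQP4, an astrocyte gene. This was applied to the whole cell libraries E50_1, E60_1 and E60_2 and gave 235 cells of the 17156 in these libraries and of 28229 in the whole series. They are called PAX6/ZIC/RELN cells here.

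All cells were labelled as entorhinal and no animal was treated. The fetuses were crossbred, from Danish Landrace/Yorkshire sows and Duroc semen. E50_1 was made from 3 pooled fetal brains at embryonic day 50 (E50), and E60_1 and E60_2 from 1 fetal brain each at E60. The tissue was dissociated with papain and captured as whole cells on the 10X Genomics platform. The 7 other libraries, from 1 further E60 pool, E70 and adult brain, were used only to see where else such cells were found. E50 had 1 library, so E50 and E60 were not tested against each other.

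Granule neurons are the small glutamatergic neurons of the cerebellar cortex. Their progenitors arise at the rhombic lip under ATOH1, divide in an outer layer in response to sonic hedgehog, and then leave the cell cycle, switch on NEUROD1 and migrate inwards. PAX6 and the ZIC genes are transcription factors of this lineage, RELN is a secreted protein that guides the position of other neurons and is made by granule neurons in the cerebellum as well as by Cajal-Retzius cells in the cortex, and CBLN1 is a secreted protein of granule axons that organises their synapses on Purkinje cells.

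E50_1 held 167 PAX6/ZIC/RELN cells among 5506 (3.03%, exact Clopper-Pearson 95% confidence interval 2.60 to 3.52%, counting error only). E60_1 held 65 among 8171 (0.795%, interval 0.614 to 1.01%) and E60_2 held 3 among 3479 (0.0862%, interval 0.0178 to 0.252%). Nearly all of the cells thus came from 2 libraries, 1 of each age. Their median depth was 9562, 3650 and 4620 UMIs, where the medians of all cells in these libraries were 8469, 4251 and 5477. None of the 235 cells had a barcode in common with another of them, and 4 shared one with some cell of another library.

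The 3 cells of E60_2 were unlike each other. The first had 49 UMIs of the collagen gene COL1A2, 11 of CLDN11 and none of STMN2 or NEUROD1. The second had 16 UMIs of STMN2 and 5 of NEUROD1, and the third 7 and 1 of them and 26 of cell cycle genes. Values of E60_2 are therefore given beside those of the other libraries, and calls of genes named here that were lost without it are given.

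The counts that chose the cells are a description. RELN had a median of 19 UMIs per cell in E50_1, 7 in E60_1 and 4 in E60_2, and ranged from 3 to 105 over all of them. PAX6 had a median of 2 UMIs, with up to 11. Of the ZIC genes, ZIC4 was found in 82.1% of the cells, ZIC1 in 70.6% and ZIC2 in 64.3%. On Sscrofa11.1 in the RefSeq annotation PAX6 lies on chromosome 2 (28971565 to 29001149), RELN on chromosome 9 (103460855 to 103963728) and ZIC2 on chromosome 11 (68840802 to 68845441). ZIC4 (87725642 to 87740724) and ZIC1 (87740769 to 87750258) are neighbours on chromosome 13 with 44 bases between them. At the RELN limit, 3 cells of E50_1 and 4 of E60_1 had exactly 3 UMIs, and 7 and 9 cells had 2. NEUROD1 was at 104 CPM (its UMIs per 1000000 UMIs, both summed over the cells) just inside this limit and 50.1 CPM just outside it in E50_1, and at 253 and 260 CPM in E60_1. AQP4 set aside many more cells in E60_1 than elsewhere, as 106 cells met the other 3 conditions there, where 48.5% of all cells had at most 1 UMI of AQP4. No cell of E50_1 was lost to this condition.

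Free RNA gives UMIs in every droplet, so the rule was also applied to microglia, which should lack these genes. It was met by 2 of 116 microglia in E50_1 (1.72%), 1 of 926 in E60_1 (0.108%) and 0 of 367 in E60_2, which allows a share of up to 0.817%. In E50_1 the share of microglia was thus near that of all cells, and it rests on 2 cells.

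In the 7 other libraries 24 cells met the rule, 16 of them in E60_3, 4 in E70_1, 2 in E70_3 and 1 each in E70_2 and Adult_1. These cells were deep, with a median of 31744 UMIs in E60_3 (3.98 times the median of that library) and 76263 UMIs in E70_1 (8.21 times). NEUROD1 was at 31.9 CPM or less and CBLN1 at 2.00 CPM or less in each of them. When each cell was drawn down to 4000 UMIs, leaving out shallower cells, the rule was met by 74 cells of E50_1 (1.34%), 13 of 4536 in E60_1 (0.287%), 2 of E60_2 (0.0575%) and 0 in each of the 7 others. In E60_3 and E70_3, which kept the most cells of those, 0 of 2696 and 0 of 3120 cells allow up to 0.111% and 0.0962%.

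**Figure D1:**
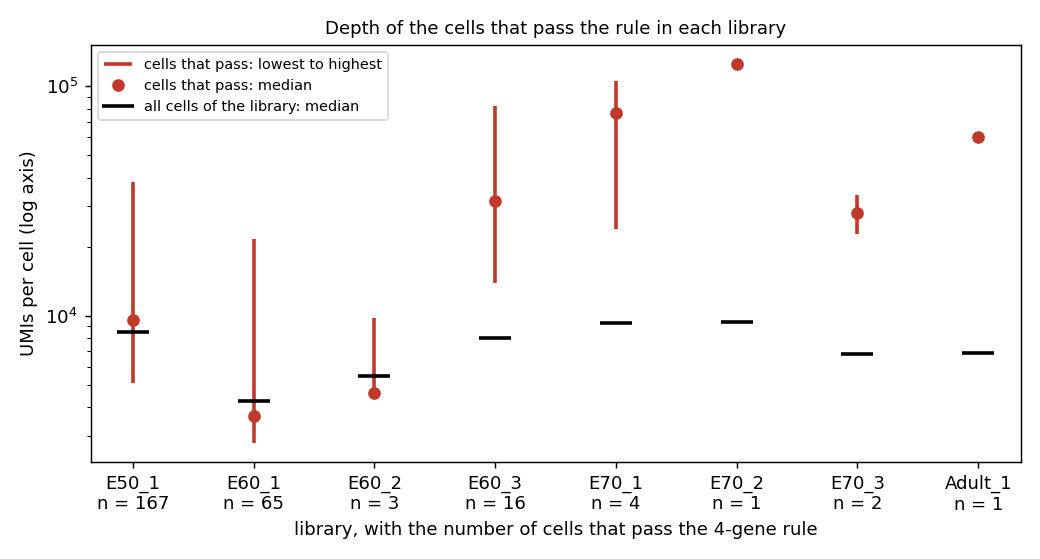
UMIs per cell on a log axis for the cells that met the 4-gene rule in each library with at least 1 such cell (red line, lowest to highest; red point, median) and the median of all cells of the library (black bar). In E50_1, E60_1 and E60_2 the red medians lie near the black bars, at 9562, 3650 and 4620 UMIs, and in the other libraries far above them.

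The name granule-like was checked on the 5 markers PAX6, ZIC1, ZIC4, RELN and CBLN1. All 5 were detected, but the first 4 had chosen the cells and only CBLN1 (chromosome 6, 35516097 to 35518080) had not. CBLN1 was at 195 CPM in E50_1 and 185 CPM in E60_1, with 0 UMIs in the 3 cells of E60_2. It was at 5.50, 21.4 and 6.09 CPM in other neurons of the same libraries and at 0.719, 1.19 and 3.08 CPM in microglia. Other neurons means cells with at least 2 UMIs of STMN2, 1 of DCX, at most 1 of AQP4 and none of PAX6, ZIC1, ZIC2 or ZIC4, which were 2484, 256 and 79 cells. NEUROD1 (chromosome 15, 87175629 to 87179953) was at 389, 374 and 316 CPM in E50_1, E60_1 and E60_2, and at 24.0, 28.3 and 6.09 CPM in other neurons. The groups did not overlap for NEUROD1 in the 3 libraries, and for CBLN1 in the 2 libraries that held more than 3 of the cells. The share of all genes with no such overlap was not counted, so this is a description.

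At least 1 UMI of NEUROD1 or CBLN1 was found in 219 of the 235 cells (93.2%), compared with 17.0% of other neurons and 2.13% of microglia. When each cell was drawn down to 2000 UMIs, these shares were 65.5%, 6.21% and 1.28%. ATOH1, the gene of granule progenitors, was at 1.12 CPM in E50_1 and 0 in the others. GABRA6, the receptor subunit of mature granule neurons, was at 2.24, 3.19 and 0 CPM. BARHL1, a homeobox gene of the lineage, was at 15.1, 12.8 and 0 CPM, against 4.13, 0 and 0 CPM in other neurons. The labelled tissue was checked in the same way. EMX1 and TBR1, genes of cortical excitatory neurons, were at 9.53 and 4.49 CPM in the PAX6/ZIC/RELN cells of E50_1 and at 0 in E60_1 and E60_2. In other neurons they were at 54.5 and 19.5 CPM in E50_1 and at 0 in both E60 libraries. NEUROD6, a further gene of these neurons, was at 67.8, 44.7 and 0 CPM against 478, 13.8 and 2.03 CPM.

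Gene by gene, the PAX6/ZIC/RELN cells were compared with the other neurons on UMIs summed per library and group, with edgeR's quasi-likelihood test and the library as a block. Of 9738 genes tested, leaving out the 8 that defined the groups, 338 were higher (3.47%) and 308 lower (3.16%) in the PAX6/ZIC/RELN cells at an adjusted p under 0.05, or 6.63% in all. The groups were chosen on linked genes of the same cells, so the test shows what went with PAX6, ZIC and RELN and is no independent support of the choice. Without E60_2, 466 genes were higher and 291 lower, of which 306 and 236 were among those above. The count rested on both larger libraries, with 16 higher and 24 lower without E50_1, and 31 and 10 without E60_1. Without the block 12 were higher and 4 lower.

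The 10 genes with the largest rise by the naming rule began with ZIC5, a further ZIC gene. ZIC5 was at 52.7, 105 and 52.7 CPM in the PAX6/ZIC/RELN cells and at 1.28, 11.03 and 20.3 CPM in other neurons (log2 fold change 4.01, SE 0.47, adjusted p 2.5e-14 by edgeR). For NEUROD1 the log2 fold change was 3.99 (SE 0.41, adjusted p 1.4e-18). Its call held without each library and under every other setting tried, with log2 fold changes between 3.87 and 4.47. CERKL, GTF2A1L and ANGPT2 also kept their calls under all of these settings, at 3.85 (SE 0.49), 3.71 (SE 0.47) and 3.29 (SE 0.45). ANGPT2 encodes a secreted ligand of the vascular receptor TIE2, and was at 58.9, 63.9 and 263 CPM against 5.62, 8.96 and 10.2 CPM. BMP5, a secreted bone morphogenetic protein, was at 103, 166 and 158 CPM against 4.22, 15.2 and 38.6 CPM, with a log2 fold change of 3.70 (SE 0.40). It kept its call without each of the libraries. ROR1, a receptor of WNT5A, was at 244, 230 and 316 CPM against 18.7, 44.8 and 42.7 CPM, and its adjusted p was 0.056 without E50_1. The others were ENSSSCG00000036224, TIMP1 and PELI2, at 3.90, 2.89 and 2.82 on the log2 scale. TIMP1, an inhibitor of metalloproteinases, lost its call without E50_1 and without E60_1, and PELI2 without E50_1. CBLN1 (4.12, SE 0.44) exceeded all 10 but had no UMI in E60_2 and so stood outside the naming rule.

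The 10 genes with the largest fall among those at 50 CPM or more in other neurons were CALB1, TFAP2D, ENC1, SLC17A6, LHX9, LHX2, CA8, EPHA5, BRINP3 and SMIM17, at log2 fold changes from -4.19 to -2.89. SLC32A1, the vesicular GABA transporter, fell further (-5.05) from a level under that limit. CALB1 and CA8 are genes of Purkinje cells, and SLC17A6 is a vesicular glutamate transporter. LHX2, LHX9 and TFAP2D are transcription factors, and LHX2 and LHX9 belong to the granule lineage list below. TFAP2D was at 12.3, 0 and 0 CPM against 172, 13.8 and 26.4 CPM in other neurons. EPHA5, an ephrin receptor, was at 90.8, 25.5 and 52.7 CPM against 812, 172 and 73.1 CPM, and lost its call without E50_1 and without E60_1. BRINP3 was lower in the PAX6/ZIC/RELN cells with a call under every setting. The other neurons were a mixture of types, which differed between the libraries.

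**Figure D2:**
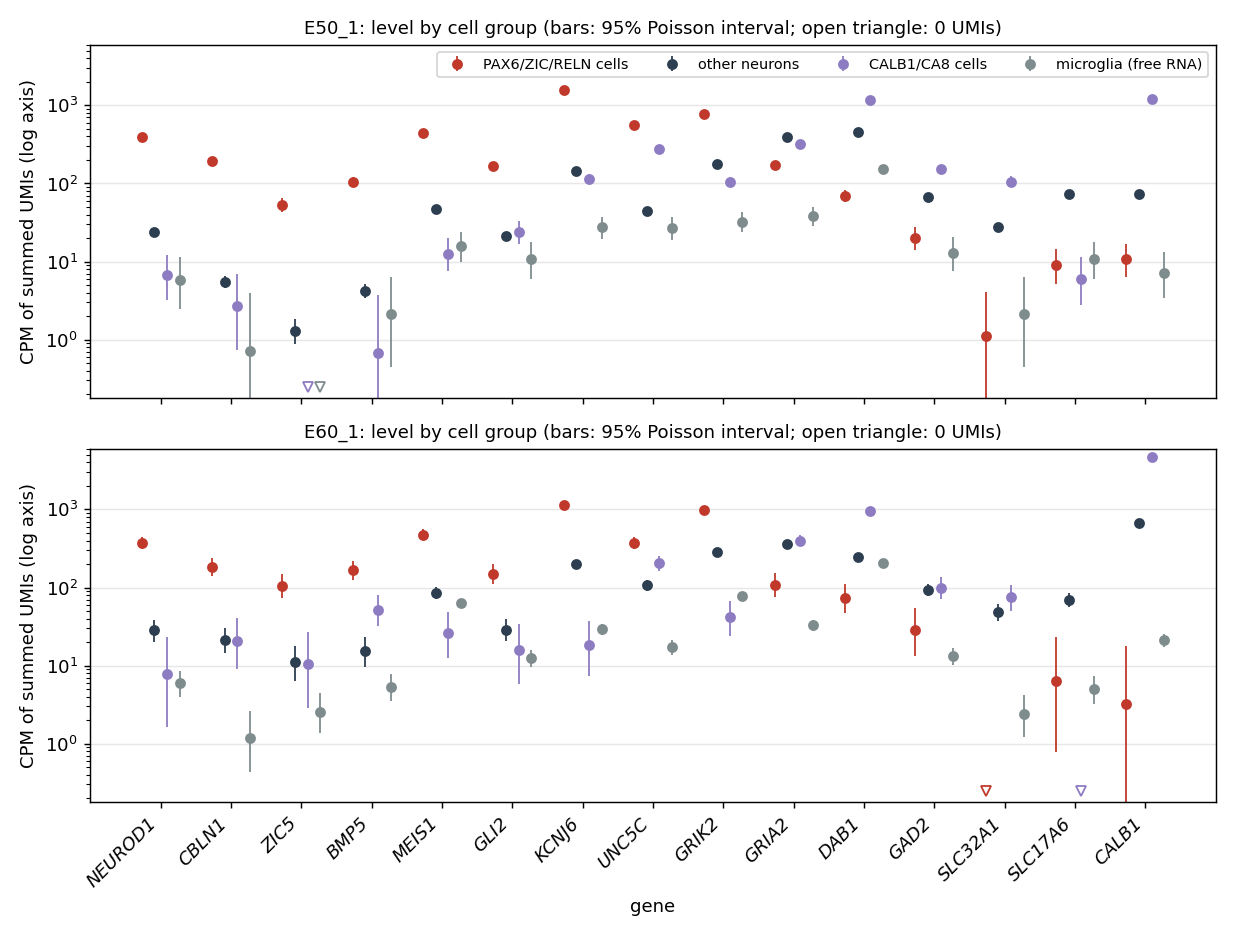
Level of 15 genes in CPM on a log axis, in E50_1 (top) and E60_1 (bottom), for PAX6/ZIC/RELN cells, other neurons, cells with at least 2 UMIs each of CALB1 and CA8, and microglia as a measure of free RNA. Bars are 95% Poisson intervals and open triangles mark 0 UMIs. NEUROD1, CBLN1, BMP5, GLI2 and KCNJ6 are highest in the PAX6/ZIC/RELN cells of both libraries, while their SLC17A6 lies near the level of microglia.

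The transcription factors of the granule lineage were measured first among the lists. Of 22 such genes 11 were tested, 5 were higher and 3 lower, with a median log2 fold change of 0.79 where the median of all tested genes was -0.06. Beside NEUROD1 and ZIC5, MEIS1, a homeobox gene, was at 437, 476 and 158 CPM against 47.5, 84.8 and 85.3 CPM (2.42, SE 0.40, adjusted p 4.1e-07). NFIA was at 878, 1335 and 1264 CPM against 224, 285 and 542 CPM, and NFIB at 1247, 1466 and 790.3 CPM against 624, 289 and 506 CPM. Both belong to the nuclear factor I family, which acts in granule neuron maturation. NFIX, a further member of this family, was at 44.3, 44.7 and 52.7 CPM against 181, 28.3 and 38.6 CPM. It was not called (-1.07, SE 0.44, adjusted p 0.15 by edgeR). LHX2, LHX9 and MEIS2 were lower, and MEIS2 was at 124, 60.7 and 52.7 CPM against 422, 204 and 323 CPM. Without E50_1 only NEUROD1 of the 7 genes that could be fitted kept its call, and without E60_1 NEUROD1 and ZIC5 of 8. All 8 kept it without E60_2.

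The genes of granule progenitors and of hedgehog signalling had 6 higher and 0 lower of 13 tested, with a median of 1.38. GLI2 (chromosome 15, 30312528 to 30580272), the transcription factor of the pathway, was at 168, 150 and 105 CPM in the PAX6/ZIC/RELN cells. In other neurons it was at 21.5, 29.0 and 48.8 CPM (2.42, SE 0.39, adjusted p 1.4e-07). PTCH1, the hedgehog receptor and itself a target of the pathway, was at 132, 182 and 105 CPM against 29.3, 42.1 and 32.5 CPM (2.02, SE 0.38). HHIP, a further target that binds the ligand, and SUFU, an inhibitor of the GLI factors, were higher by 1.67 and 1.42 on the log2 scale. HHIP was at 32.5, 51.1 and 105 CPM, and microglia had 41.0, 31.3 and 33.4 CPM of it. BOC, a co-receptor, was at 90.8 and 35.1 CPM in E50_1 and E60_1 against 15.0 and 9.65 CPM, and had no UMI in the 3 cells of E60_2. CXCR4, a chemokine receptor that holds granule progenitors in the outer layer, was at 99.2, 125 and 211 CPM against 17.0, 35.9 and 63.0 CPM. SMO, GLI3, CDON, MYCN, CCND1, CCND2 and SFRP1 were not called. GLI1 was at 1.68, 0 and 0 CPM and was not tested. None of the 6 kept its call without E50_1 or without E60_1, and all did without E60_2. Several of these genes were as high in cells with PAX6 and ZIC but no RELN, whose values are given with that comparison.

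Cell cycle genes accompanied them. Of 8 tested, 5 were higher and 0 lower, with a median of 1.90. CDK1 was at 61.7, 125 and 263 CPM against 6.70, 33.1 and 108 CPM (2.23, SE 0.37), and TOP2A at 204, 233 and 105 CPM against 23.8, 65.5 and 128 CPM (1.98, SE 0.38). CENPF, UBE2C and CCNB1 were the others. The definition of other neurons by STMN2 and DCX favours cells that no longer divide, and all 5 calls were lost without E50_1 or without E60_1 and kept without E60_2.

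The cycle genes were spread unevenly over the PAX6/ZIC/RELN cells. At least 10 UMIs of the 10 cycle genes matched in the files were found in 32 of 167 cells in E50_1 (19.2%), where 0.966% of other neurons had as many. In E60_1 they were found in 12 of 65 cells (18.5%) and in 5.86% of other neurons. A further 107 and 47 cells had 0 to 2 such UMIs. Between these ends of the same population the genes of progenitors and of neurons went opposite ways. In E50_1, CXCR4 was at 290.2 CPM in the cells with 10 or more cycle UMIs and at 32.1 CPM in those with 0 to 2, and in E60_1 at 388 and 35.1 CPM. GLI2 was at 299.7 and 125 CPM in E50_1, and at 291 and 85.3 CPM in E60_1. VIM, an intermediate filament gene of progenitors, was at 761 and 152 CPM, and at 471 and 140.4 CPM. KCNJ6, a potassium channel gene, was at 449.6 CPM in the cycling cells and at 2066 CPM in the others of E50_1, and at 734 and 1424 CPM in E60_1. RELN was at 1011 and 2211 CPM in E50_1, and at 899.8 and 1981 CPM in E60_1. CBLN1 was at 71.4 and 258 CPM, and at 83.1 and 241 CPM. NEUROD1 differed in E50_1, with 149.9 and 517 CPM, and less so in E60_1, with 346 and 416 CPM. STMN2, a gene of growing axons, was at 1130.0 CPM in the cycling cells and 2742 CPM in the others of E50_1 and at 1827 and 2598 CPM in E60_1. MEIS1 was at 590.0 and 405 CPM in E50_1 and at 651 and 421 CPM in E60_1, and NFIB at 1211 and 1287 CPM and at 1661 and 1429 CPM. The cycling cells of E50_1 were deeper, with a median of 12524 UMIs against 8964, and the split was made on counts of the same cells, so these values are a description without a test. Whether doublets of a dividing cell and a neuron took part was not tested, and Scrublet scores are given with the markers of other cell types.

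**Figure D3:**
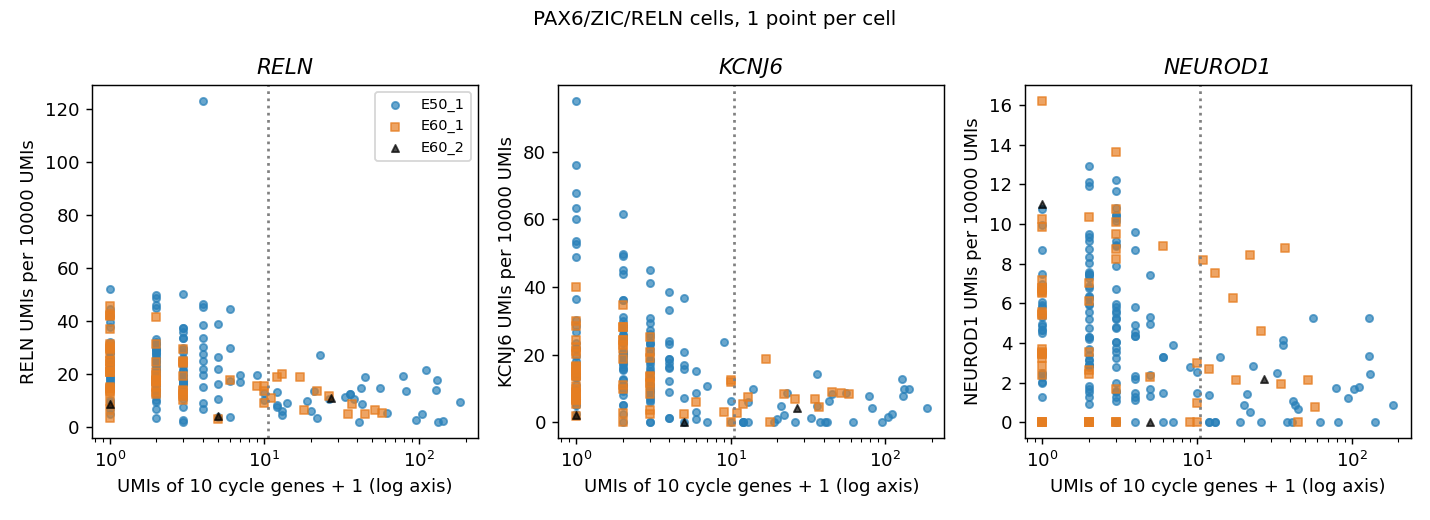
Each point is 1 PAX6/ZIC/RELN cell of E50_1 (circles), E60_1 (squares) or E60_2 (triangles), with its UMIs of 10 cycle genes plus 1 on a log axis and its RELN, KCNJ6 or NEUROD1 UMIs per 10000 UMIs. The dotted line marks 10 cycle UMIs, with 32 cells of E50_1 and 12 of E60_1 beyond it, and these have lower RELN and KCNJ6 than many of the cells to its left.

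Of the genes for migration and adhesion, 2 were higher and 5 lower of 19 tested, with a median of -0.33. KCNJ6 (chromosome 13, 201231803 to 201525943), which encodes the channel GIRK2 that granule cells use, was at 1559 CPM in E50_1, 1153 CPM in E60_1 and 158 CPM in E60_2. It was at 142, 201 and 87.4 CPM in other neurons (2.49, SE 0.42, adjusted p 6.3e-07). At least 1 UMI of it was in 150 of 167 and 62 of 65 cells of the larger libraries. UNC5C, a netrin receptor on chromosome 8 (124149364 to 124533755), was at 554, 374 and 211 CPM against 44.2, 107 and 87.4 CPM (2.35, SE 0.41). Its relative UNC5D went the other way, at 43.7, 15.97 and 52.7 CPM against 169.6, 79.3 and 67.0 CPM. PLXNA2 and PLXNA4, semaphorin receptors, CHL1, an adhesion molecule, and BDNF, a neurotrophin, were also lower. CNTN1, SEMA6A and ASTN2 were not called. CNTN1 was at 912 and 1092 CPM against 164 and 466 CPM in E50_1 and E60_1, but at 263 against 449 CPM in E60_2 (adjusted p 0.063). SEMA6A was at 467 and 345 CPM against 144 and 115 CPM, with no UMI in the 3 cells of E60_2. None of the calls that could be fitted, 5 of 7 without E50_1 and 7 without E60_1, was kept, and all were without E60_2.

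**Figure D4:**
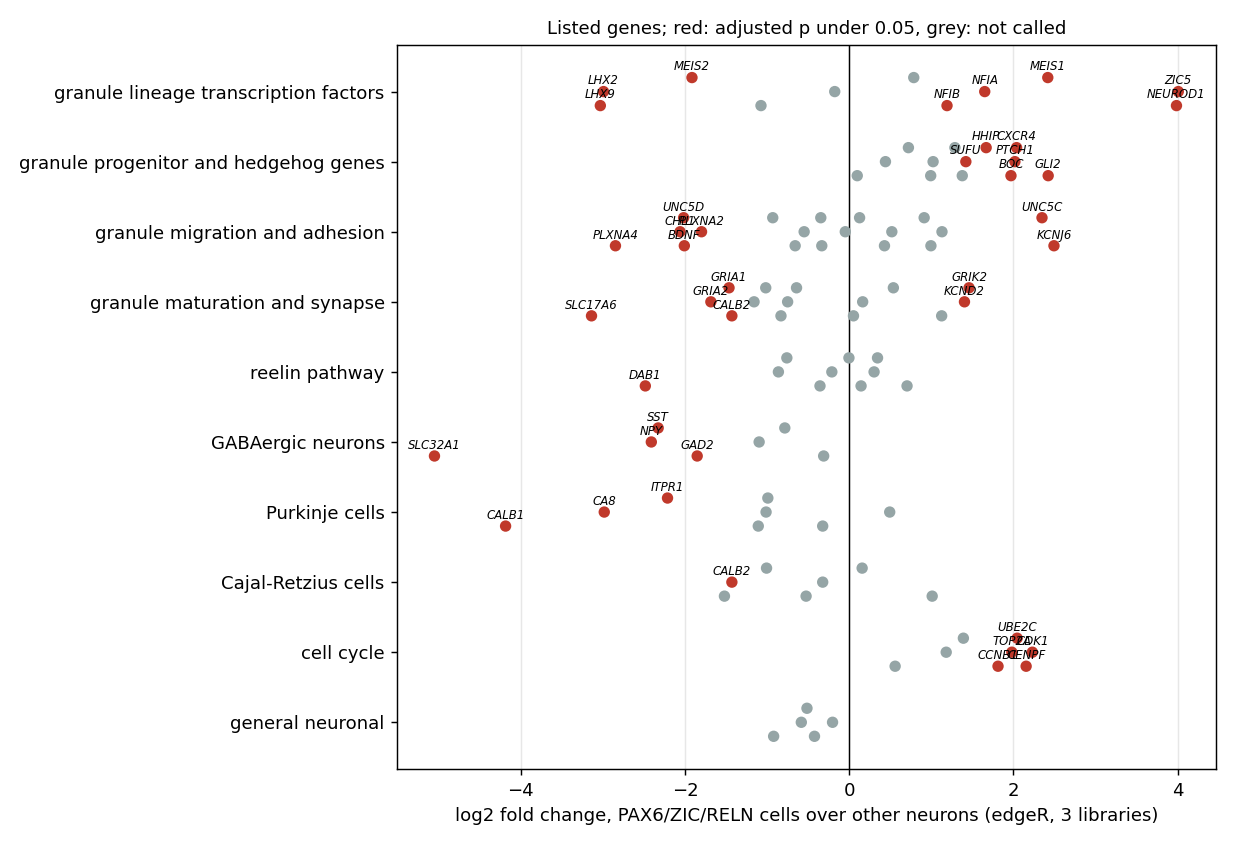
Log2 fold change of the genes of 10 lists in PAX6/ZIC/RELN cells over other neurons, fitted over 3 libraries, with 1 point per tested gene. Red points have an adjusted p under 0.05 and carry their names. Hedgehog and cell cycle genes that were called lie on the higher side, and GABAergic and Purkinje genes that were called on the lower side.

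Genes of synapses and mature granule neurons gave 2 higher and 4 lower of 15 tested, with a median of -0.75. GRIK2, a kainate receptor subunit, was at 766, 996 and 211 CPM against 179, 283 and 201 CPM (1.46, SE 0.40, adjusted p 0.0062), and KCND2, a potassium channel of the A type, was higher by 1.40. GRIA1 and GRIA2, AMPA receptor subunits, were lower by 1.46 and 1.68. GRIA4, another AMPA receptor subunit, was at 867 and 1057 CPM against 184 and 419.9 CPM in the larger libraries and at 263 against 400.2 CPM in E60_2, and was not called (adjusted p 0.060). FAT2, a cadherin of granule neurons, was at 17.9 and 41.5 CPM against 1.98 and 4.14 CPM, with 0 in both groups of E60_2. It was too low for the filter and was called in the fit without one (3.14, adjusted p 2.7e-06), as was BARHL1 (2.27, adjusted p 0.012), but not ATOH1 (5.26, adjusted p 0.41). Of the 6 calls none that could be fitted was kept without E50_1 or without E60_1, and without E60_2 CALB2 was lost.

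Beside CBLN1, CBLN4, a further cerebellin, and NRXN3, a presynaptic neurexin, were called, and both were lower. CBLN4 was at 7.85, 6.39 and 0 CPM against 23.3, 55.2 and 28.4 CPM in other neurons (-2.04, SE 0.54, adjusted p 0.0043). NRXN3 was at 68.4, 25.5 and 0 CPM against 96.0, 145.5 and 178.8 CPM (-1.41, SE 0.41, adjusted p 0.011). CBLN1 did not pass the filter without E50_1 or without E60_1, and CBLN4 and NRXN3 lost their calls there. NRXN3 also lost it without E60_2.

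The reelin pathway beyond RELN itself had 0 higher and 1 lower of 10 tested. DAB1, the adaptor that relays the reelin signal inside a cell, was at 69.5, 73.5 and 0 CPM in the PAX6/ZIC/RELN cells. It was at 462, 247 and 313 CPM in other neurons (-2.48, SE 0.42, adjusted p 8.6e-07) and at 151, 205 and 217 CPM in microglia. DAB1 lost its call without E50_1 (adjusted p 0.081) and kept it without E60_1 or E60_2. The reelin receptors VLDLR and LRP8 were not called. VLDLR was at 12.3, 9.58 and 0 CPM, below its level in microglia in each library.

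The transmitter of these cells could not be read from its usual genes. SLC17A6, the glutamate transporter of young neurons, was at 8.97, 6.39 and 0 CPM against 72.4, 68.9 and 28.4 CPM in other neurons (-3.14, SE 0.52). In microglia it was at 10.8, 4.96 and 2.64 CPM. At least 1 UMI of SLC17A6 or SLC17A7 was in 14.0% of the cells and in 40.0% of other neurons. SLC17A7, the transporter of mature granule neurons, was at 8.41 and 12.8 CPM in the larger libraries, with 0 in microglia of both. SLC32A1, the vesicular GABA transporter, had 2 UMIs in all, in 2 of 235 cells, and lay at 1.12, 0 and 0 CPM against 27.6, 48.3 and 38.6 CPM, with a call under every setting.

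GAD1 and GAD2, which make GABA, differed between the libraries. In E50_1 58 of 167 cells had a UMI of either (34.7%), more than the 22.5% of other neurons and the 14.9% of microglia. At 2000 UMIs per cell these shares were 15.0%, 12.6% and 1.75%. In E60_1 they were found in 5 of 65 cells (7.69%), with 34.4% of other neurons and 4.76% of microglia. GAD1 was at 45.4 CPM in E50_1, close to the 47.3 CPM of other neurons, and at 6.39 CPM in E60_1. The 81 UMIs of GAD1 in E50_1 were spread over 44 cells, with at most 9 in 1 cell. Over the libraries GAD2, SLC32A1, SST and NPY were lower, 4 of 7 tested, and GAD1 was not called. SST and GAD2 lost their calls without E50_1 or E60_1 and NPY without E60_1 or E60_2. SST was higher than in other neurons in E60_2, from 7 UMIs.

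Genes of other RELN-rich or hindbrain types were measured as well. Of 8 Purkinje cell genes tested 0 were higher and 3 lower, namely CALB1, CA8 and ITPR1, which lost their calls without E60_1 and kept them without E60_2. PCP4, a further gene of these cells, was at 438, 300.2 and 105 CPM against 306, 1325 and 307 CPM and was not called. In the 138 and 82 cells of E50_1 and E60_1 chosen by CALB1 and CA8, which resemble Purkinje cells, NEUROD1 was at 6.67 and 7.84 CPM and UNC5C at 277 and 204 CPM. Of 7 genes of Cajal-Retzius cells 1 was lower, CALB2, and none higher, and CALB2 lost its call without E60_1 or without E60_2. These are sums over all the cells, which were not alike. The cells with the most RELN, at 104, 105 and 100 UMIs in E50_1, had no UMI of NEUROD1 or CBLN1. Each of them had 1 UMI of PAX6 and 2 of the ZIC genes. NDNF of this list was not called, and its 49 UMIs lay in 6 of the 235 cells. EBF3 of this list was at 121, 102 and 52.7 CPM against 37.3, 80.0 and 36.6 CPM (adjusted p 0.095). Of 5 genes of unipolar brush cells 2 were lower, SLC17A6 and CALB2. TP73, which marks Cajal-Retzius cells, was at 1.68, 3.19 and 0 CPM. EOMES, a gene of unipolar brush cells and of cortical progenitors, was at 28.04, 6.39 and 0 CPM against 4.59, 0.689 and 0 CPM. Its 50 UMIs in E50_1 were in 34 cells. It was too low for the filter and was called in the fit without one (2.60, adjusted p 0.0011). EN2, a gene of midbrain and hindbrain, was at 58.3, 41.5 and 105 CPM against 22.1, 89.6 and 26.4 CPM and was not called (adjusted p 0.69).

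Markers of other cell types were summed in the same cells. Microglial genes together were at 137, 389.6 and 0 CPM against 89.5, 499.8 and 1367 CPM in other neurons. Astrocyte and radial glia genes were at 474, 453 and 1212 CPM against 301, 279 and 971 CPM. This sum includes AQP4, which was limited to at most 1 UMI in both groups. In E50_1, 17 cells had 10 or more such UMIs (10.2%, against 4.23% of other neurons). Vascular and meningeal genes were at 145, 128 and 4109 CPM against 156, 65.5 and 249.9 CPM. Oligodendroglia genes were at 21.9, 342 and 580 CPM against 75.9, 72.4 and 163 CPM, higher in the PAX6/ZIC/RELN cells of both E60 libraries. These sums rested on few cells, as 1 cell held 85 such UMIs in E60_1 and 1 cell held 11 in E60_2. Of the 60 MBP UMIs in E60_1, 59 were in 1 cell. OLIG1 was called lower (-1.54, SE 0.49, adjusted p 0.031 by edgeR), and lost its call without E50_1, without E60_1 or without E60_2. COL1A2 (1.96, SE 0.42) and CLDN11 (2.21, SE 0.51) were called higher, but all 49 UMIs of COL1A2 and all 11 of CLDN11 in E60_2 lay in the first of its 3 cells, and 23 of 25 UMIs of CLDN11 in E60_1 in 1 cell. Both lost their calls without E60_1. COL1A2 also lost it without E60_2, and CLDN11 could not be fitted there. HBB, a measure of red blood cell RNA, was at 1654, 14748 and 316 CPM against 3520.4, 13087 and 29191 CPM, and its call as lower was lost without E60_2. Scrublet called 10 of the 167 cells in E50_1 doublets (5.99%, where it called 2.52% of the library) and no cell at all in E60_1 and E60_2, where it did not work. Without these cells 348 genes were higher and 324 lower, and without the 5% of cells with the highest scores in each library 357 and 349.

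Between E50_1 and E60_1 the levels in the PAX6/ZIC/RELN cells can be set side by side only as 1 library each. TUBB3 was at 2750.3 and 79.8 CPM in them and at 4748 and 125 CPM in other neurons, so some genes differed between the whole libraries. NEUROD1, CBLN1, GLI2 and MEIS1 were at similar levels, with overlapping 95% Poisson intervals. KCNJ6 was at 1559 and 1153 CPM, and UNC5C at 554 and 374 CPM. ASTN2, which acts in the migration of granule neurons along glia, was at 155 and 434 CPM, where other neurons had 80.4 and 141 CPM. EBF1 was at 67.3 and 275 CPM against 156 and 394 CPM, and GABRA2, a receptor subunit, at 77.9 and 179 CPM against 108 and 69.6 CPM. SPOCK3 was at 273 and 63.9 CPM against 174 and 273 CPM. Age, animal and library cannot be told apart in these values.

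The same rule without RELN gave few other cells. Cells with PAX6 and ZIC that had no UMI of RELN numbered 22, 3 and 4 in E50_1, E60_1 and E60_2, and those with 1 or 2 UMIs 18, 13 and 3, so most cells with PAX6 and ZIC in E50_1 and E60_1 had 3 or more UMIs of RELN. Against the cells with none, 7 of 3925 genes were higher (0.178%) and 2 lower (0.051%), or 0.229% in all, with edgeR, and 218 and 188 at an unadjusted p under 0.05. KCNJ6 was at 16.5, 423 and 0 CPM in the RELN-negative cells (4.55, SE 0.89, adjusted p 0.044) and MLLT11, a gene of growing neurons, at 122, 254 and 32.2 CPM against 1319, 655 and 474 CPM in the PAX6/ZIC/RELN cells (3.02, SE 0.58, adjusted p 0.044). SPOCK3, MARCH1 and ENSSSCG00000021315 were higher and ISYNA1 and CALD1 lower. CALD1, an actin-binding protein gene, was at 461, 676 and 515 CPM in the RELN-negative cells and at 70.1, 57.5 and 158 CPM in the others. STMN2 and SYT1 lay just outside the threshold (both adjusted p 0.056), with STMN2 at 125, 1860.1 and 16.1 CPM in the RELN-negative cells. COL1A2 was at 1908, 507 and 273 CPM in them, against 39.3, 25.5 and 2582 CPM. NEUROD1 was at 29.6, 338 and 0 CPM (adjusted p 0.096) and CBLN1 at 0, 254 and 0 CPM (0.29). Genes of progenitors and of the cycle were found in the RELN-negative cells too. GLI2 was at 158, 338 and 32.2 CPM in them (log2 fold change -0.02, SE 0.62), BOC at 102, 169 and 64.3 CPM, CXCR4 at 375, 338 and 129 CPM (-1.19, SE 0.61, adjusted p 0.55) and TOP2A at 385, 0 and 369.9 CPM. Of the lists, 0 of 6 lineage transcription factors, 0 of 7 progenitor and hedgehog genes and 0 of 6 cycle genes were called in this comparison, with median log2 fold changes of 0.67, -0.02 and -0.46 where that of all tested genes was 0.03. With so few cells the count moved with each library, to 0 and 0 of 757 genes without E50_1 (19 and 12 at an unadjusted p under 0.05), 26 and 27 without E60_1, and 64 and 42 without E60_2.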

How the data were processed

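The authors deposited raw UMI counts per gene and cell for each of the 10 libraries, made with Cell Ranger 2.20 (submitters' processing notes) against the pre-mRNA of Sscrofa11.1. Depth is the UMIs per cell. The 235 cells were chosen from these counts by fixed limits, with no clustering. The cells, the gene lists and the tests were chosen with earlier results of these data known. UMIs were summed per library and cell group and tested with edgeR 4.0.16 (TMM, filterByExpr, quasi-likelihood F test, library as a block, Benjamini-Hochberg over all genes), since both groups came from the same 3 libraries. The block is 1 library, of 1 to 3 brains. With 3 libraries edgeR draws the spread of each gene between libraries towards that of all genes. The p-values therefore rest largely on a spread shared over genes and little on a gene's own. A small p-value is thus no measure of how well a gene repeated over the 3 libraries. SE is the log2 fold change over the square root of F. Scripts were tested on simulated data. Of 214 listed genes 208 were matched by symbol. Named outside the lists were the 10 genes with the largest rise and fall (5 against RELN-negative cells) that were called, went the same way in every library and reached 50 CPM in the higher group. DESeq2 1.42.0 and Scrublet in scanpy 1.11.5 served as alternatives. Intervals are 95% and cover counting error only, and 0 counts allow up to 3. Genes in the files without a symbol keep their Ensembl identifier. A few listed genes are not reported here.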

Additional observations from a re-analysis of the deposited data

Results flagged for a closer look

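Outside the libraries of the rule, 16 cells of E60_3 and 4 cells of E70_1 met it. This is a signal in data that no comparison used, and it was gone at 4000 UMIs per cell, where 0 cells of either library met the rule.

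For some genes E50_1 went one way and both E60 libraries the other when PAX6/ZIC/RELN cells were divided by other neurons. The difference between the ages was not tested, since E50 had 1 library. The ratio of SNAP25 was 1.23 in E50_1, 0.457 in E60_1 and 0.469 in E60_2, and that of GAP43 was 1.14, 0.614 and 0.539. For CLDN11 it was 0.417, 23.2 and 21.9, and for COL1A2 0.934, 2.85 and 50.8. Of the CLDN11 UMIs 23 of 25 in E60_1 and all 11 in E60_2 were in 1 cell, as were 6 of 8 and all 49 of those of COL1A2.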

How the results depend on the processing

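The number of cells was 126 with at least 4 ZIC UMIs and between 172 and 322 under the other limits tried. Against other neurons, the genes higher and lower were 144 and 129 with DESeq2 (143 and 129 of them among the main calls), and 12 and 4 with no replicate block. With at least 5 UMIs of RELN, where E60_2 had 1 cell and left the fit, 140 were lower, and against all other cells 706. Leaving out 1 library gave 16 to 466 higher and 10 to 291 lower. Against RELN-negative cells the counts were 76 and 38 with at least 5 UMIs of RELN, 18 and 8 with RLE size factors, 24 and 34 without a filter, 12 and 12 with no replicate block, 4 and 1 without Scrublet doublets and 45 and 35 without the highest scores (an alternative chosen after seeing the data), and 0 to 64 and 0 to 42 when 1 library was left out. The causes were not tested.

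Against all other cells, log2 fold changes turned in CCND1 (-1.18), CCND2 (-1.20), C1QC (-1.74), SLC1A3 (-1.97), VIM (-1.496), RGS5 (-1.51), COL1A1 (-1.89), COL1A2 (-0.85), HBM (-2.07), MLLT11 (1.497), GAP43 (1.13) and ELAVL4 (1.14). Of 61 named genes with a call, 60 fitted without Scrublet doublets and 61 with RLE size factors or no filter kept it, as did 43 with DESeq2, 8 without the block, 12 of 50 without E50_1, 15 of 60 without E60_1 and 54 of 60 without E60_2. With 3 cells, E60_2 limits what can be read from low genes there, as 3 UMIs were 158 CPM.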
